A study of Mus musculus with 5 samples.

Results

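The 34 genes described here encode the machinery of glycolysis and of the cellular response to low oxygen, and were taken by symbol from a deposited table of 25549 gene rows. They comprise 2 glucose transporters, 3 hexokinases, 13 enzymes of upper and lower glycolysis, 4 genes of lactate handling, 4 regulators of flux, and 8 genes of the hypoxia-inducible factor (HIF) system. All 34 symbols had a row, and 30 of them carried a p-value, as did 24071 rows of the whole table. RNA came from untreated mast cells that grow out when C57BL/6 mouse bone marrow is kept for 6 to 8 weeks in 50 ng/mL recombinant interleukin-3. The control group was Cpa3-Cre, in which Cre recombinase is driven by the promoter of Cpa3, a carboxypeptidase gene of mast cells (2 samples). The other group was Cpa3-Cre;miR-9∆fl/∆fl, called the miR-9 line below (3 samples), so both groups carry Cre. Mice were matched for age and sex, with neither stated, and no oxygen level is given for the cultures beyond 5 percent CO2 at 37 degrees. Whether recombination adds or deletes miR-9 is not stated in the labels, nor whether samples of a group came from separate animals, so each p-value rests on sample-to-sample spread that may be technical only.

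Glycolysis splits glucose into pyruvate: upper steps spend ATP to make triose phosphates, and lower steps regain it. Pyruvate then enters mitochondria or is turned into lactate, which leaves through monocarboxylate transporters. HIF is a pair of an oxygen-labile alpha subunit and ARNT; prolyl hydroxylases mark the alpha subunit for destruction when oxygen is present. In low oxygen it induces most steps of glycolysis along with genes of mitophagy, collagen maturation and its own hydroxylases. Mast cells use both glycolysis and mitochondrial respiration, and activation through the IgE receptor is known to raise their glycolytic flux.

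Each fold change below is the log2 difference of the miR-9 line over the control in the authors' deposited table, with positive values for higher expression in the miR-9 line. The table states no standard error, and levels per sample were not analysed here, so neither the number of samples sharing a direction nor the abundance of a gene is given. Gm25641, a 108-base gene model that covers the Mir9-1 hairpin on chromosome 3 but lies on the opposite (minus) strand, had, in the authors' deposited table, a value of 4.50 (log2), with a Benjamini-Hochberg adjusted p of 8.74e-18. As the use of strand in counting is not stated, this row does not measure miR-9 and checks the labels only in that the locus differed between the groups. Of 16 mast cell marker genes, 11 had positive values, where 40.2 percent of all rows did, with a median of 0.08. Their values ran from -0.12 (Tpsab1) to 1.60 (Tpsb2). Tpsb2 alone passed the test (Benjamini-Hochberg adjusted p = 0.0149), where 0.411 percent of all rows did. Most markers of neutrophils (13 of 14), monocytes and macrophages (12 of 16) and eosinophils (6 of 8) lacked a p-value there. In bulk RNA, fewer cells of a type and less RNA per cell cannot be told apart.

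No glycolysis or hypoxia gene passed the test over all rows. At a Benjamini-Hochberg adjusted p under 0.05, 0 of the 30 members with a p-value were called in either direction, against a background of 0.411 percent of all rows (0.245 percent higher and 0.166 percent lower). At an unadjusted p under 0.05, 4 members were higher (Slc16a1, Hk1, Pgam1 and Aldoc) and 1 was lower (Pfkfb3), where 7.92 percent of all rows passed (3.87 percent higher and 4.05 percent lower). No member passed at an adjusted p under 0.10 (0.968 percent of all rows) or at an unadjusted p under 0.0001 (0.299 percent of all rows). Positive values were found for 20 of the 30, against 40.2 percent of all rows, and the members' median was 0.24 against -0.09 over all rows in the authors' deposited table. Of the 30, 18 lay above the upper quartile of all rows (0.15), 3 below the lower quartile (-0.38) and 9 between. A deposited p of at most 0.000205 was needed to be called, and the member closest to it, Slc16a1, had 0.00366. No member reached a log2 fold change of 1 in either direction.

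**Figure D1:**
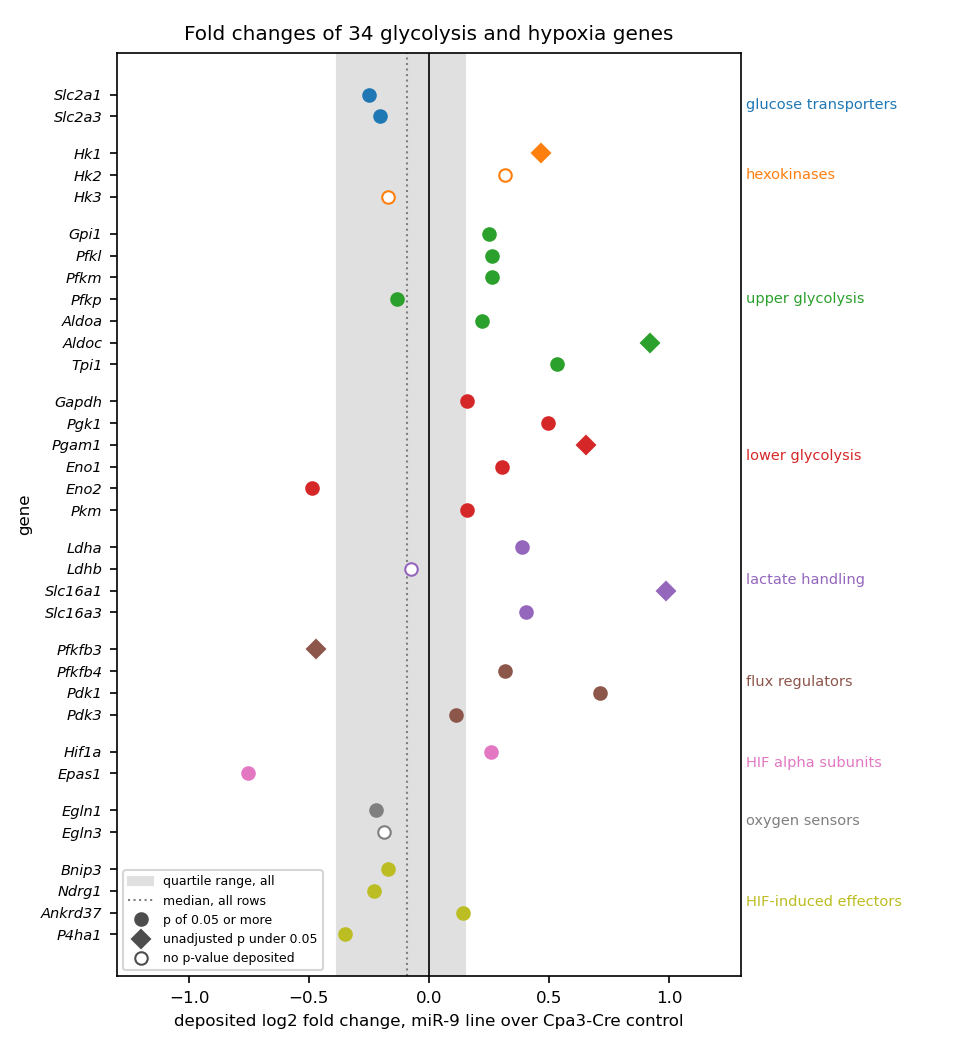
Deposited log2 fold change (x axis) of each of the 34 genes (y axis), coloured by role; diamonds have an unadjusted p under 0.05 and open circles no p-value. The grey band spans the lower to upper quartile of 24071 rows (-0.38 to 0.15) and the dotted line their median (-0.09); most enzymes lie to its right, while the HIF-induced effectors lie within it.

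**Figure D2:**
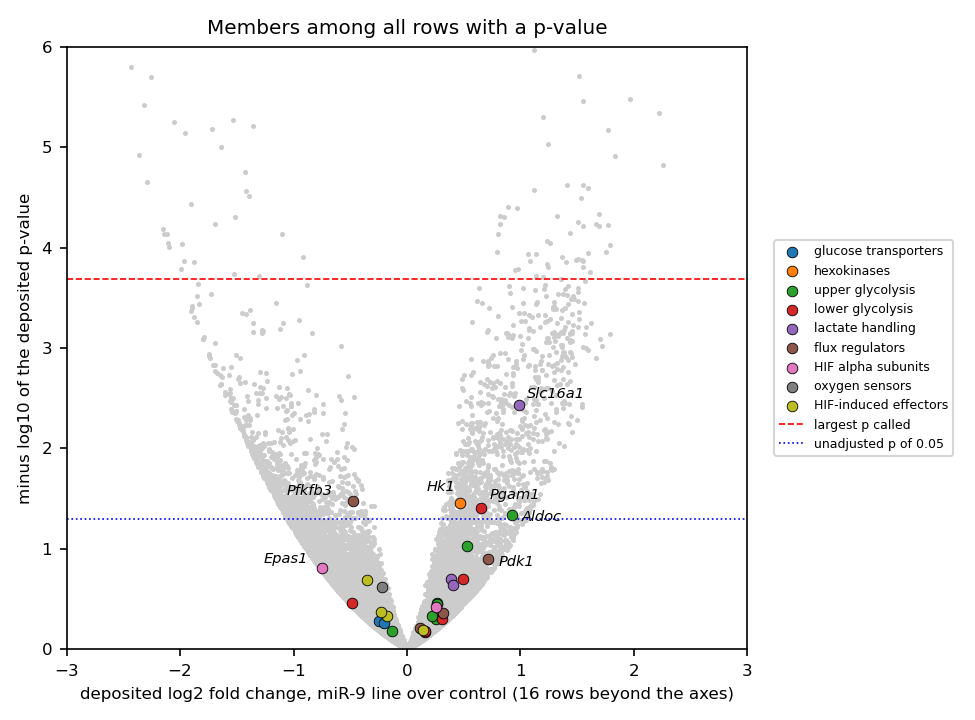
Deposited log2 fold change (x axis) against minus log10 of the deposited p-value (y axis) for all rows with a p-value (grey) and the 30 members (coloured by role). All members lie below the dashed line, which marks the largest p-value called at an adjusted p under 0.05 (0.000205), and 5 lie above the dotted line at an unadjusted p of 0.05; 16 rows lie beyond the axes.

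The median of the glycolytic enzymes was positive and that of the 8 HIF-system members negative, with exceptions in both groups. Among the 16 enzymes from hexokinase to pyruvate kinase, 14 had a p-value and 12 of these were positive, with a median of 0.26 in the authors' deposited table. Among the 8 HIF subunits, oxygen sensors and HIF-induced effectors, 7 had a p-value and 2 of these were positive, with a median of -0.22. That median lies between the quartiles of all rows (-0.38 and 0.15), of which 40.2 percent were positive. Members known as HIF-induced but placed under other roles are not among the 8. They include Pdk1 (0.71), Slc16a3 (0.40), Hk2 (0.32) and Eno2 (-0.49). Both medians kept their sign when the fold changes were centred on the median of all rows (0.36 and -0.13). The difference between these groups was not tested, because it would need values per sample.

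Glucose entry was the exception among the glycolytic steps, with negative values for both transporters. Slc2a1, which encodes the widespread transporter GLUT1, stood at -0.25 (p = 0.522), and Slc2a3, for the high-affinity GLUT3, at -0.21 (p = 0.547) in the authors' deposited table. Both values lie between the quartiles of all rows.

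Hexokinases trap glucose in the cell by phosphorylating it. Hk1 (chromosome 10, 62268855 to 62379908, minus strand), the constitutive isoform that docks on mitochondria, stood at 0.47 in the authors' deposited table, 1.38-fold higher in the miR-9 line (p = 0.0353, Benjamini-Hochberg adjusted p = 0.562). Hk2, the inducible isoform and a known HIF target, stood at 0.32, and Hk3, found mainly in myeloid cells, at -0.17 in the authors' deposited table, both lacking a p-value.

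In upper glycolysis 6 of 7 genes had positive values. The glucose-6-phosphate isomerase gene Gpi1 stood at 0.25 (p = 0.498) in the authors' deposited table. Pfkl and Pfkm, the liver and muscle subunits of phosphofructokinase, the committed step, both stood at 0.26, while Pfkp, the platelet subunit, was the 1 negative gene at -0.13 (p = 0.664) in the authors' deposited table. Aldolase, which cuts the hexose into trioses, showed an uneven pair. Aldoc (chromosome 11, 78322968 to 78327781, plus strand), the isoform best known from brain, stood at 0.92 in the authors' deposited table, 1.89-fold higher (p = 0.0459, Benjamini-Hochberg adjusted p = 0.614), and the ubiquitous Aldoa at 0.22 (p = 0.473). Tpi1, which interconverts the trioses, stood at 0.53 (p = 0.0937, Benjamini-Hochberg adjusted p = 0.725) in the authors' deposited table.

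In lower glycolysis 5 of 6 genes had positive values. Pgam1 (chromosome 19, 41911871 to 41918664, plus strand), the phosphoglycerate mutase gene, stood highest at 0.65 in the authors' deposited table, 1.57-fold higher (p = 0.0390, Benjamini-Hochberg adjusted p = 0.583). Pgk1, whose enzyme makes the first ATP of the pathway, stood at 0.50 (p = 0.201), and Eno1, the ubiquitous enolase gene, at 0.31 (p = 0.496) in the authors' deposited table. Gapdh, often used as a reference gene, stood at 0.16 (p = 0.678) and Pkm, for pyruvate kinase, also at 0.16 (p = 0.660) in the authors' deposited table. Eno2, the enolase isoform typical of neurons and also HIF-induced, had the single negative value, -0.49 (p = 0.344), in the authors' deposited table. The members that catalyse the last ATP-yielding step and the reference gene thus had the smallest positive values of this section of the pathway.

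Lactate handling held the member with the smallest p-value. Slc16a1 encodes MCT1, a transporter that moves lactate and pyruvate with a proton in either direction. It lies on chromosome 3 from 104638668 to 104658462 on the plus strand (GRCm38) with 5 exons. In the authors' deposited table it stood at 0.99 on the log2 scale, a level 1.98-fold above the control (p = 0.00366), rank 443 by p-value among 24071 rows. The Benjamini-Hochberg adjusted p was 0.199, so it was not called. Slc16a3, which encodes MCT4, the HIF-induced lactate exporter, stood at 0.40 (p = 0.232) in the authors' deposited table. Ldha, the lactate dehydrogenase subunit that favours lactate formation, stood at 0.39 (p = 0.198), and Ldhb, the subunit of oxidative tissues, at -0.08 with none, in the authors' deposited table; the sign of Ldhb turned when fold changes were centred on all rows.

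The regulators of flux did not share a sign. Pfkfb3 and Pfkfb4 are bifunctional enzymes that set the level of fructose-2,6-bisphosphate, the strongest activator of phosphofructokinase. Pfkfb3 (chromosome 2, 11471430 to 11502101, minus strand), the isoform with the highest kinase activity, stood at -0.47 in the authors' deposited table, 1.39-fold lower in the miR-9 line (p = 0.0334, Benjamini-Hochberg adjusted p = 0.552). Pfkfb4 stood at 0.32 (p = 0.437) in the authors' deposited table. Pdk1 and Pdk3 encode kinases that switch off pyruvate dehydrogenase and so hold back the conversion of pyruvate to acetyl-CoA. Pdk1, a HIF target, stood at 0.71, or 1.64-fold higher (p = 0.128), and Pdk3 at 0.11 (p = 0.610) in the authors' deposited table.

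The alpha subunits of HIF differed in sign. Hif1a, the subunit that drives glycolytic genes, stood at 0.26 (p = 0.377), and Epas1, which encodes HIF-2 alpha, at -0.75, 1.69-fold lower (p = 0.154), in the authors' deposited table. Epas1 had the lowest value of the 34 genes and was not called. The transcript of an alpha subunit says nothing of its protein, which is set by degradation.

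The oxygen sensors and the HIF-induced effectors held mostly small negative values. Egln1 and Egln3 encode prolyl hydroxylases that mark HIF alpha, and stood at -0.22 (p = 0.241) and at -0.19 (p-value empty) in the authors' deposited table. Bnip3, a mitophagy receptor, stood at -0.17 (p = 0.466), and Ndrg1, a stress-response gene widely used as a hypoxia marker, at -0.23 (p = 0.422) in the authors' deposited table. P4ha1, a subunit of collagen prolyl hydroxylase, stood at -0.35 (p = 0.203), and Ankrd37, a direct HIF-1 target, at 0.14 (p = 0.648) in the authors' deposited table. The 4 effectors had a median of -0.20, between the quartiles of all rows.

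Related genes were set side by side in 14 pairs of isozymes or paralogs. In 7 pairs 1 value was positive and 1 negative in the authors' deposited table, a count from which nothing is read, since 40.2 percent of all rows were positive and no share over other pairs was computed. Of these pairs, Ldha and Ldhb had the same sign after centring on all rows. The widest gap was 1.01 between Hif1a and Epas1, followed by 0.79 for Eno1 over Eno2 and also for Pfkfb4 over Pfkfb3. The aldolases (0.70), the pyruvate dehydrogenase kinases (0.60) and the monocarboxylate transporters (0.58) had gaps without a change of sign, and Pfkl and Pfkm had nearly equal values. These are differences of log2 fold changes from the authors' deposited table, and none was tested.

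**Figure D3:**
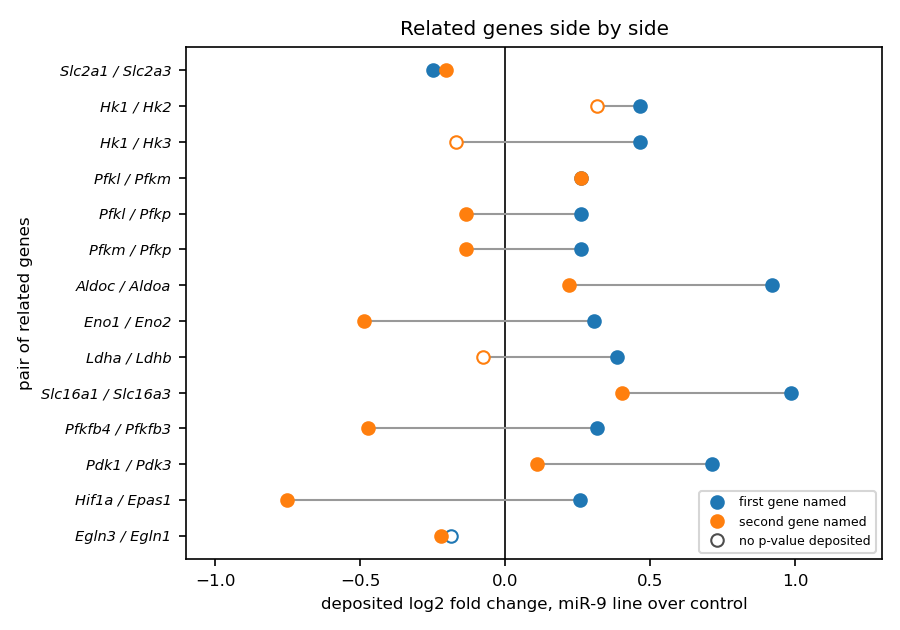
Deposited log2 fold changes (x axis) of 14 pairs of related genes (y axis), with a line joining the first and second gene named; open circles have no p-value. The widest line joins Hif1a and Epas1 (a gap of 1.01), and 7 lines cross 0.

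Several members share sequence with other rows, which leaves their counts uncertain. Single-exon copies named after 4 members had rows of their own, and copies under other names were not searched for. Pgam1-ps2 stood at 0.68 and Pgam1-ps1 at 0.38 beside 0.65 for Pgam1, Pgk1-rs7 at 0.67 beside 0.50 for Pgk1, and Ldha-ps2 and Ldha-ps at 0.43 and 0.39 beside 0.39 for Ldha in the authors' deposited table. Aldoart1 stood at 0.21 and Aldoart2 at -1.20 beside 0.22 for Aldoa in the authors' deposited table. The sources used here do not give how reads matching both a gene and its copy, or both strands, were counted. Exons of 10 members also overlap a row on the opposite strand, the longest stretch being 741 bases of Gpi1 with Gm26762 (0.01 in the authors' deposited table). Among the 17 members with a p-value and neither a copy named after them nor an overlapping exon, 10 were positive (58.8 percent). Their median was 0.16, against 0.24 for all 30.

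The promoters of the 4 members with the smallest p-values among those holding a HIF core motif are shown so that the motifs can be read in place beside fold changes of both signs. Each window runs from 250 bases before to 50 after the transcript start (RefSeq, GRCm38.p6), 5′ to 3′ on the strand of the gene. Capitals mark ACGTG or GCGTG, the core that HIF binds, on either strand, and CACGTG, the E-box of factors such as MYC, which contains ACGTG on both strands.
Slc16a1 promoter, chr3:104638414-104638713, plus strand: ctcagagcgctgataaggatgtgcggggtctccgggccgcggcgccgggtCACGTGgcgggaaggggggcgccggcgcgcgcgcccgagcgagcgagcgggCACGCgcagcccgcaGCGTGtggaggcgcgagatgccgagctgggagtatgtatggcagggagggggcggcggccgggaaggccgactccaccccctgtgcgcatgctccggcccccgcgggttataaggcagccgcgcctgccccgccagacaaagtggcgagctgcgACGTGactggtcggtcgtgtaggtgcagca
Pfkfb3 promoter, chr2:11502041-11502340, minus strand: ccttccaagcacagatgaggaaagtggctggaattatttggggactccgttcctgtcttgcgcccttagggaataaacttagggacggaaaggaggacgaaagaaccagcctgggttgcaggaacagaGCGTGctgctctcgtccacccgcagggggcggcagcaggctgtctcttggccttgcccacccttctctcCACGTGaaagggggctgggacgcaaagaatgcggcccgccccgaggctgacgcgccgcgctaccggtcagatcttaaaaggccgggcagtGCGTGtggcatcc
Pgam1 promoter, chr19:41911621-41911920, plus strand: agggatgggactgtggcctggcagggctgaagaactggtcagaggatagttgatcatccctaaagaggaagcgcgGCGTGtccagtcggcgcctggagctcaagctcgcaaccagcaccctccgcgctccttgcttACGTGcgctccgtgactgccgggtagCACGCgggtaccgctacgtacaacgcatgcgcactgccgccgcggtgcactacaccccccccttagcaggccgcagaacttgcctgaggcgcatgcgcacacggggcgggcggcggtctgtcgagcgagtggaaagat
Aldoc promoter, chr11:78322823-78323122, plus strand: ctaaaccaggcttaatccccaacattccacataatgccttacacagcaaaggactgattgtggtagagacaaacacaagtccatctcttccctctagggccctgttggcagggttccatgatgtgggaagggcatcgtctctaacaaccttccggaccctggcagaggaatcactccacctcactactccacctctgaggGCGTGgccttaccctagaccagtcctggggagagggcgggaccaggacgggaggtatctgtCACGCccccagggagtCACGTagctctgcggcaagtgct

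The window of Slc16a1 held 5 matches, each strand counted, among them a CACGTG that begins 200 bases before the start. That of Pfkfb3, with a negative fold change, held 4 matches including a CACGTG at 53 bases before the start, and those of Pgam1 and Aldoc 3 each without CACGTG. Of the 31 members with a promoter in the RefSeq table, 25 (80.6 percent) held ACGTG or GCGTG, where 43.8 percent of all 32851 promoters did. For each member only the window nearest the start of its row was searched, though some members have more, such as Pfkm with 4. All promoters of 27025 genes were counted in the background, so the shares compare unlike units. For ACGTG alone the shares were 61.3 and 19.6 percent, and for CACGTG 19.4 and 7.15 percent. The members' windows held a median of 21 CG steps against 7 in all promoters, and both core motifs contain CG. Among promoters with at least 21 CG, 74.0 percent held ACGTG or GCGTG, against 14 of the 16 member promoters of that kind (87.5 percent), a narrower gap than over all promoters. For ACGTG alone these shares were 29.0 percent and 12 of 16. That gap, in percentage points, was wider than over all promoters (19.6 against 61.3 percent). The fold changes of members with and without the motif had similar medians, a difference that was not tested. Of members with a p-value, 15 of 21 with ACGTG or GCGTG were positive with a median of 0.26, and 5 of 6 without it with a median of 0.24, in the authors' deposited table. Aldoa, Hk1 and Pkm, counted as without it, have 3, 2 and 2 promoters, of which only the nearest was searched. Ldha held the most matches, 7 with CACGTG at 2 places, in a window 4329 bases from the start of its row in the deposited table. The window of Hif1a lay 6492 bases from that start, those of Gapdh and Slc16a3 694 and 587 bases, and 26 of the 31 windows at most 300. A match is a run of letters and not a measured binding site. Ndrg1, Slc2a3 and Epas1 were not analysed here for promoters.

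**Figure D4:**
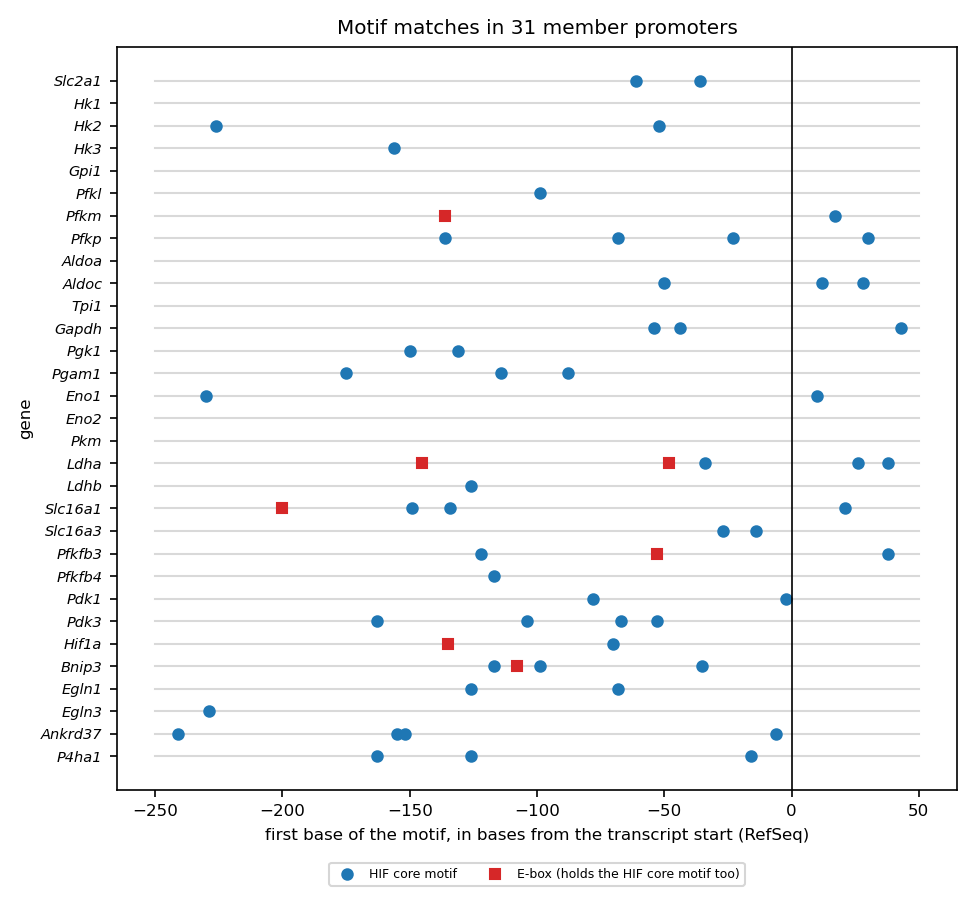
First base of each motif match (x axis, bases from the transcript start) in the promoter windows of 31 members (y axis); circles are the HIF core motif and squares the E-box, which also holds the HIF core. Matches occur in 25 windows and E-boxes in 6, including Slc16a1, Pfkfb3, Hif1a, Bnip3, Pfkm and Ldha, whose fold changes differ in sign; the windows of Hif1a and Ldha lie 6492 and 4329 bases from the start of their rows.

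Because the genotype concerns miR-9, the members' 3′ UTRs were searched for matches to its seeds. The mature strands are given with the seed (bases 2 to 8) in capitals.
mmu-miR-9-5p: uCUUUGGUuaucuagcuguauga
mmu-miR-9-3p: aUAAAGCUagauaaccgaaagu
Matches to the miR-9-5p seed occurred in 7 of the 34 members (20.6 percent), at 9 positions, where 12.2 percent of 20997 genes had one. The members' longest annotated 3′ UTRs (GENCODE M21) had a median of 1250.5 bases against 962 for all genes. The matched members with the largest positive and negative fold changes among the 7, and Pfkfb4, with 2 matches, are shown with the match in capitals.
Aldoc 3′ UTR, chr11:78326777-78326799, plus strand: ctgtctgttgcacatACCAAAGt
P4ha1 3′ UTR, chr10:59372626-59372648, plus strand: ggttccattcccactACCAAAGc
Pfkfb4 3′ UTR, chr9:109031066-109031088, plus strand: cttcttggtgcacacACCAAAGt
Pfkfb4 3′ UTR, chr9:109031878-109031900, plus strand: cttgaggcaaagaccACCAAAGc
Of the 6 matched members with a p-value, 3 were positive and 3 negative. Aldoc (0.92), Pdk1 (0.71) and Pfkfb4 (0.32) stood above 0, and P4ha1 (-0.35), Ndrg1 (-0.23) and Pfkp (-0.13) below it, in the authors' deposited table. Hk2, with 2 matches, stood at 0.32 in the authors' deposited table, its p-value being empty. For miR-9-3p, 5 members had a match (14.7 percent, against 11.3 percent of all genes): Pfkm, Pfkfb4, Pdk1, Hif1a and Egln1. None of these genes was called.

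The neighbouring pathways were read from lists of other genes. Over 75 genes with a p-value in glucose transport, side enzymes of glycolysis, pyruvate handling, the pentose phosphate pathway and the TCA cycle, 0 were called by Benjamini-Hochberg adjusted p. At an unadjusted p under 0.05, 6 were higher and 2 lower, where 3.87 percent of all rows were higher and 4.05 percent lower. Positive values were held by 47 (62.7 percent), against 40.2 percent of all rows. Their median was 0.10, against -0.09 over all rows. The same shares of all rows are the background for each list below. The TCA cycle, which burns acetyl groups in mitochondria, had positive values for 17 of 17 genes with a median of 0.24 in the authors' deposited table. Idh3a, a subunit of isocitrate dehydrogenase, led it at 0.57 (p = 0.00582, Benjamini-Hochberg adjusted p = 0.261), with the malate dehydrogenase gene Mdh2 at 0.53 (p = 0.0274) and Idh2 at 0.49 (p = 0.0929) in the authors' deposited table. The pentose phosphate pathway, which makes NADPH and ribose, had 9 of 10 positive values and a median of 0.24, with Prps1 at 0.58 (p = 0.0230), Tkt at 0.62 (p = 0.105) and Taldo1 at 0.45 (p = 0.170) in the authors' deposited table.

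Other glucose transporters and sugar kinases had mostly negative values. Of 14 genes, 3 were positive and the median was -0.59 in the authors' deposited table. The 2 transporters among the members were negative too, but lay between the quartiles of all rows. Slc2a8, an intracellular glucose transporter, stood at -1.02 (p = 0.00470, Benjamini-Hochberg adjusted p = 0.230), Gckr at -0.77 (p = 0.124) and Slc2a13, a proton-inositol transporter, at -0.75 (p = 0.140) in the authors' deposited table. Several of these genes are known from liver, gut or kidney, and their levels were not analysed here.

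Pyruvate and lactate handling beyond the members was split, with 8 of 17 positive and a median of -0.08 that turned to 0.02 after centring on all rows. Me2, the mitochondrial malic enzyme gene, stood at 0.94 (p = 0.000742, Benjamini-Hochberg adjusted p = 0.0867) and the cytosolic Me1 at 0.98 (p = 0.0204) in the authors' deposited table. Slc16a7, which encodes the high-affinity transporter MCT2, stood at -1.11 (p = 0.00304, Benjamini-Hochberg adjusted p = 0.185), opposite in sign to Slc16a1 and Slc16a3, in the authors' deposited table. Side enzymes and further isozymes of glycolysis had 10 of 17 positive values and a median of 0.01, led by Pgm1 (0.54, p = 0.00796), Pgm2 (0.60, p = 0.0539) and the gluconeogenic Fbp1 (-0.99, p = 0.0668) in the authors' deposited table. No gene of these lists was called.

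Further HIF-induced genes did not share a direction. Of 30 with a p-value 11 were positive (36.7 percent, against 40.2 percent of all rows), and 0 were called by Benjamini-Hochberg adjusted p. An unadjusted p under 0.05 was found for 4, of which 2 were higher, where 7.92 percent of all rows passed. Their median was -0.10, beside -0.09 over all rows. Pgm1, 1 of the 2 higher genes, is on this list by symbol only, with a row on chromosome 5. Whether that row is the HIF-induced phosphoglucomutase gene was not checked. The cytokine gene Mif stood at 0.70 (p = 0.0228), while Ddit4, an inhibitor of MTOR signalling, stood at -0.78 (p = 0.0116) in the authors' deposited table. Vegfa, the angiogenic factor most often read as a sign of hypoxia, stood at -0.31 (p = 0.321) and Car9, another classical marker, at 0.07 (p = 0.854), in the authors' deposited table. Of 16 other HIF subunits and regulators 12 were positive with a median of 0.08, and none had an unadjusted p under 0.05; Hsp90ab1 (0.37, p = 0.0991), Siah1a (-0.32, p = 0.120) and Hif1an (0.26, p = 0.133) came closest in the authors' deposited table. Arnt, the partner of both alpha subunits, stood at -0.09 (p = 0.661), and Vhl, which recognises the hydroxylated alpha subunit, at 0.07 (p = 0.764) in the authors' deposited table.

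**Figure D5:**
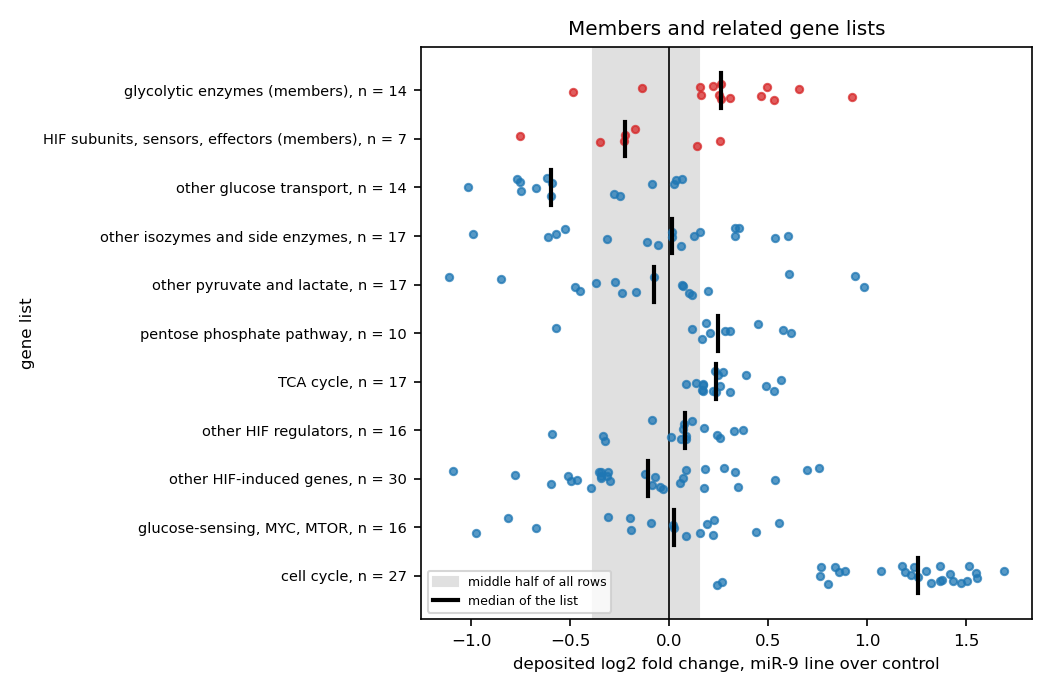
Deposited log2 fold changes (x axis) of single genes with a p-value, in 2 groups of members (red) and 9 related lists (blue) on the y axis; black bars are list medians and the grey band the lower to upper quartile of all rows. The TCA cycle and pentose phosphate lists have medians of 0.24, near the glycolytic enzymes at 0.26, while other HIF-induced genes centre on -0.10 and cell cycle genes on 1.26.

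Cell cycle genes had positive values together with the glycolytic enzymes. Of 27 with a p-value, 27 were positive with a median of 1.26, 25 were higher and 0 lower at an unadjusted p under 0.05, and 3 rose in the authors' deposited table: Cdk1 (1.55), Cdc25c (1.69) and Rrm1 (1.23), with Benjamini-Hochberg adjusted p of 0.0245, 0.0245 and 0.0396. Erythroid markers, the genes of another lineage that marrow cultures can hold, had positive values for 6 of 9 with a median of 0.77 and none called, with Hbb-bs at 1.09 (p = 0.0405) and Klf1 at 0.94 (p = 0.0769) in the authors' deposited table. Lists of lymphocyte (median -0.52), stromal (-0.31), dendritic cell (-0.41) and basophil (0.16) markers had no called gene. The part of proliferation or of other cells in the fold changes of the glycolytic genes was not tested.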

How the data were processed

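Libraries were stranded, made after depletion of ribosomal RNA and sequenced in pairs of 50 bases, to about 70 M reads a sample per the labels' protocols; 5 columns of values per library match no sample's labels and were not used, so the depth behind each gene is not known here. The tools named by the submitters' processing notes are DESeq, DESeq2, Cuffdiff, HTSeq and STAR, and the builds mm10 and GRCm38; the sources used here do not give their roles, versions, filters, shrinkage of fold changes or use of strand. Per the file headers the authors' values are a log2 fold change, the same fold change on a signed linear scale, a deposited p-value (empty in 1478 of 25549 rows, for reasons not stated) and the summed exon length.

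No test of expression was run here, as fixed in the design for a table without columns that match the samples. Benjamini-Hochberg adjustment was made over the 24071 deposited p-values (statsmodels 0.14.6, Python 3.11.15), calling an adjusted p under 0.05. The members and lists were chosen with earlier results of these data known. All 34 members are named, with the called genes and the 3 smallest p-values of each pathway list; other genes named were chosen after their values were seen. Of the 34 members, 32 began and ended within 1000 bases of the GENCODE M21 gene. Promoters and miRNAs are from RefSeq. The adjustment and motif search were tested on simulated data. Single genes of 2 lists are counted but not reported here by name.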

Additional observations from a re-analysis of the deposited data

How the results depend on the processing

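The count of 0 called members held with adjustment over protein-coding genes alone (smallest adjusted p 0.148), by Benjamini-Yekutieli, at an adjusted p under 0.10 and at the unadjusted p of 0.0001 named in the design text. At an unadjusted p under 0.05 there were 5 members, 4 other HIF-induced genes and 8 genes of neighbouring pathways. Pgm1, matched by symbol only, is in both of the last 2 counts. At an adjusted p under 0.10 there was 1 gene of neighbouring pathways, Me2. The members' median of 0.24 became 0.33 after centring on all rows or on protein-coding rows, 0.19 over all 34 members, and 0.16 over the 17 without shared exons or named copies, a choice made after seeing the data, which left 10 positive values. Positive members numbered 20 under both centrings and 21 of 34 over every row. The value of Ldhb turned to 0.016 and 0.013 under the respective centrings; no other member changed sign. No paired analysis was possible because the columns of values per library match no sample's labels. For the same reason leaving out replicates, other count models, pseudocounts and filters on low values were not run. Depth per gene is unknown, so its limit on these values could not be given.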

Other observations

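Genes that sense glucose or set growth held some of the larger values around glycolysis. Txnip, which encodes an arrestin-like protein that lowers glucose uptake and is induced by glucose through the MondoA factor, stood at -0.81 in the authors' deposited table, 1.76-fold lower in the miR-9 line (p = 0.0110, Benjamini-Hochberg adjusted p = 0.357). Its relative Arrdc4, induced by the same factor, stood at -0.98 (p = 0.0358, Benjamini-Hochberg adjusted p = 0.565) in the authors' deposited table. Myc, whose protein drives glycolytic and cell cycle genes, stood at 0.55, 1.47-fold higher (p = 0.0122, Benjamini-Hochberg adjusted p = 0.376), in the authors' deposited table. The MondoA gene itself, Mlxip, stood at -0.09 (p = 0.696) and its partner Mlx at 0.19 (p = 0.607) in the authors' deposited table. Of 16 genes of this list with a p-value, 0 were called by Benjamini-Hochberg adjusted p, 1 was higher and 2 lower at an unadjusted p under 0.05, 9 were positive and the median was 0.02.

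Among the lactate and pyruvate transporters of the SLC16 family, the deposited values ran from 0.99 for Slc16a1 and 0.40 for Slc16a3 to -0.85 for Slc16a8 (p = 0.112) and -1.11 for Slc16a7 in the authors' deposited table. Bsg, the chaperone that brings MCT1 and MCT4 to the membrane, stood at 0.20 (p = 0.318), and Emb, the partner of MCT2, at -0.48 with none, in the authors' deposited table. The differences between these genes were not tested.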
